A study of Glycyrrhiza uralensis with 12 samples.

Results

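Pairs of neighbouring genes that lie on opposite strands of the DNA and share a stretch of it were described in seedlings of *Glycyrrhiza uralensis*, a medicinal legume (licorice). In such pairs the transcripts of both genes can be complementary to each other over the shared exons. In plants, opposite-strand transcripts are known from many loci, and where both are made they can pair, give rise to small RNAs or interfere during transcription, while many other overlaps come from gene models that run into each other. A tail-to-tail pair shares its 3′ ends, a head-to-head pair shares its 5′ ends, and in a nested pair one gene lies inside the other.

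Full-length cDNA was sequenced by the Oxford Nanopore method from ground 45-day-old seedlings of 4 treatments, with 3 libraries each and 12 in all. The control (CK) received distilled water, CK + G2 received the endophytic bacterium *Bacillus cereus* G2 as a suspension, S received 75 mM NaCl, and S + G2 received both. The 3 libraries of a treatment are given as biological replicates, seedlings having been grouped by weight. The libraries held 3303591 to 3929023 reads on genes, so that a single read was worth 0.255 to 0.303 CPM (reads per 1000000 reads of the library). The genes for the small chain of Rubisco, the enzyme that fixes CO2 in leaves, were at 7523 to 32629 CPM (*Glyur000604s00024572*) and 122 to 1095 CPM (*Glyur001973s00030832*) in every library. Rubisco was lowest in CK library 1 and CK + G2 libraries 2 and 3, at 7523 to 10129 CPM against 14475 to 32629 CPM in the other 9, and results that rest on these 3 libraries are given without them too.

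A pair entered when both genes had a row in the gene expression table and their annotated ranges on opposite strands of a scaffold overlapped by at least 100 bp. This gave 2078 pairs made of 3963 genes, 13.5% of the 29436 genes in the table, on 1061 scaffolds. A further 2949 overlaps of that length had at least 1 gene without a row, and the annotation held 0 overlaps between genes of the same strand. Of the member genes, 3781 were in 1 pair, 175 in 2 pairs, 6 in 3 pairs and 1 in 7 pairs, so the pairs are not all independent of each other. Nested pairs were the most frequent with 904 (43.5%), followed by 758 tail-to-tail pairs (36.5%) and 416 head-to-head pairs (20.0%). The overlap had a median of 1022.5 bp and reached 24267 bp, but the part where exon lies over exon had a median of only 241 bp. Coding sequence lay over coding sequence in 1485 pairs (71.5%), exon over exon without that in 381 (18.3%), and in 212 pairs (10.2%) the genes shared introns or an exon and an intron only. The 40 pairs just inside the limit, with an overlap of 100 to under 150 bp, had medians of 8.40 CPM for the higher and 0.196 CPM for the lower gene, and the 70 neighbouring pairs with a shorter overlap had 6.02 and 0.398 CPM.

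The deposited annotation gives no gene functions, and enzyme names are known only for the 22 genes that the study names by identifier. Of these, 7 are members of a pair: all 4 genes of carbon fixation, 1 of 10 of starch and sucrose metabolism and 2 of 8 of glycolysis and the tricarboxylic acid cycle. For a pair of them, sucrose synthase (SS), which makes and splits sucrose, and 6-phosphofructokinase (PFK), which commits sugar to glycolysis, the study's PCR primers are shown because they are the sequences by which these members were measured outside the libraries. They are printed 5′ to 3′ in lower case.
SS forward: tttgttgctttggctgttcg
SS reverse: ttagcagaaagatggcggttg
PFK forward: cagaggaagtgtatgcttgtgttg
PFK reverse: cctctattccgagaactctgtgc

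In most pairs a single gene carried nearly all of the expression. The median over all 2078 pairs was 15.8 CPM for the higher gene and 0.135 CPM for the lower gene, which is less than 1 read per library. The lower gene made up less than 10% of the pair's CPM in 1458 pairs (70.2%) and less than 1% in 882 pairs (42.4%). Among neighbours without overlap the lower gene was under 10% in 47.5% of opposite-strand and 46.2% of same-strand pairs. In 1221 pairs the lower gene had 10 reads or fewer in the 12 libraries together. Both genes reached 1 CPM in at least 3 libraries, the level asked for in the tests below, in 646 pairs (31.1%), a single gene did so in 1278, and neither did in 154. How the authors treated strand in counting is not stated in the labels or methods, so reads of a gene and of its partner cannot be told apart with certainty where exons overlap. In whole seedlings, fewer cells of a type and less RNA per cell cannot be told apart either.

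The lower gene was mostly the shorter one. The gene with the longer exons was the higher in 1719 pairs (82.7%), and exon length had a median of 507 bp in the lower and 1677 bp in the higher gene. The authors removed short reads before counting, and the part of this step in the difference was not tested. On CPM per kilobase of exon the share of pairs with the lower gene under 10% was 61.4%, against 46.1% and 44.9% for opposite-strand and same-strand neighbours without overlap. The order of the 2 genes turned on the scale per kilobase in 177 pairs, 127 of them among the 646 with both genes at the testing level.

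Nested pairs were the most unequal. The lower gene was under 10% of the CPM in 79.6% of nested, 67.8% of head-to-head and 60.2% of tail-to-tail pairs. In 771 of 904 nested pairs (85.3%) the inner gene was the lower, with medians of 0.113 CPM for the inner and 14.3 CPM for the outer gene. Pairs with coding sequence over coding sequence fell under 10% in 76.6%, against 49.3% where exons overlapped outside that and 62.3% where no exon lay over an exon. The single gene with 7 partners, *Glyur000017s00002458* (chosen after its values were seen), averaged 7.62 CPM, and its nested partners averaged 0.185 to 0.604 CPM. In 3 pairs both genes had the same value in every library, all of them below the testing level. In 493 of the 646 pairs (76.3%) the same gene was higher in all 12 libraries, so the order within a pair was mostly the same in the 4 treatments.

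**Figure D1:**
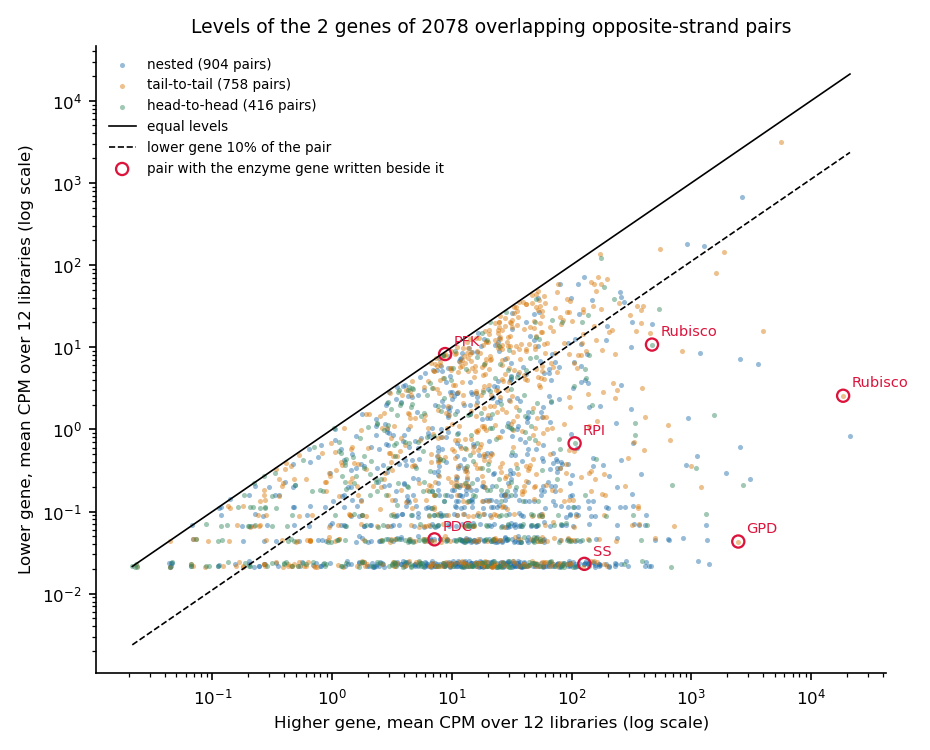
Each point is 1 of the 2078 pairs, with the mean CPM of its higher gene over 12 libraries on the horizontal and of its lower gene on the vertical axis (both log scales). The solid line marks equal levels, the dashed line a lower gene at 10% of the pair, and 1458 pairs lie below the dashed line. Circles mark the pairs with an enzyme gene, of which PFK lies near equality, while the partners of SS, GPD and PDC lie at the level of 1 or 2 reads in all.

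The genes of carbon fixation stood against weak partners. *Glyur000604s00024572* (Rubisco small chain, plus strand of Scaffold00604, bases 120390 to 122912) shares 549 bp of exon with *Glyur000604s00024573* (bases 120425 to 123022). Rubisco was at 8774, 14475 and 18392 CPM in CK, at 26328, 10129 and 7523 CPM in CK + G2, at 21077, 20058 and 21858 CPM in S and at 23125, 32629 and 18027 CPM in S + G2. Its partner was at 2.06, 3.32 and 2.12 CPM in CK, 3.28, 2.63 and 1.12 CPM in CK + G2, 0.870, 3.66 and 3.05 CPM in S and 2.66, 3.17 and 2.85 CPM in S + G2. The partner was thus 0.0138% of the pair by CPM and 0.0411% per kilobase of exon, with 3 to 13 reads in a library. The covariation was r = 0.42 (Spearman 0.43) with an adjusted p of 0.625 by a permutation test of the 12 libraries, and r was 0.05 without the 2 libraries farthest from the median and 0.07 without the 3 libraries with the least Rubisco.

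The other Rubisco gene, *Glyur001973s00030832*, overlaps *Glyur001973s00030831* head-to-head by 185 bp. It was at 163, 256 and 447 CPM in CK, at 787, 158 and 122 CPM in CK + G2, at 500.3, 596 and 633 CPM in S and at 514, 1095 and 363 CPM in S + G2. Its partner ran from 5.41 to 14.2 CPM and was 2.24% of the pair by CPM. Both were low in CK library 1 and CK + G2 library 3 (r = 0.75, Spearman 0.48, adjusted p = 0.178 by permutation, r = 0.45 without the 2 farthest libraries and 0.35 without the 3 with the least Rubisco).

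Ribose 5-phosphate isomerase (RPI), which interconverts pentose phosphates in the Calvin cycle, was the single enzyme gene whose pair passed the test of covariation, with the limits below. *Glyur004632s00040687* (RPI, bases 2885 to 3757 of Scaffold04632) shares 776 of its 873 bp of exon with *Glyur004632s00040686*. RPI was at 62.0, 68.4 and 94.7 CPM in CK, at 126, 59.7 and 71.8 CPM in CK + G2, at 134, 135 and 111 CPM in S and at 123, 170.4 and 115 CPM in S + G2. The partner had 2, 0 and 2 reads in CK, 3, 0 and 1 in CK + G2, 3, 4 and 4 in S and 2, 5 and 4 in S + G2, a mean of 0.677 CPM. It reached 1 CPM only in S and S + G2 libraries, with at most 0.605 CPM in CK and 0.820 CPM in CK + G2. The pair thus entered the test only through the treatments where both genes averaged higher, and its call is not read as support. Libraries rich in RPI were those with more partner reads (r = 0.86, Spearman 0.85, adjusted p = 0.0324 by permutation), and r was 0.72 after the treatment means were taken out. With 30 partner reads in all, the call was lost without CK library 3, any CK + G2 library, S library 1 or 2, or S + G2 library 2 (adjusted p 0.0618 to 0.125), by Spearman's rho (0.0814), without the 3 libraries with the least Rubisco (r = 0.87, adjusted p = 0.295) and on annotated transcripts alone (r = 0.48, adjusted p = 0.610). The index of the split of reads between the genes (defined with the covariation below) was 0.467, where separate reads at a constant split give 1 on average. Whether this value lies beyond counting error was not tested.

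Glyceraldehyde-3-phosphate dehydrogenase (GPD, *Glyur002595s00035357*), a dehydrogenase that uses NADP+, averaged 2467 CPM, with 2 reads in all on its tail-to-tail partner *Glyur002595s00035356*. GPD was at 1323, 1688 and 2232 CPM in CK and at 2930.5 to 3064 CPM in S, without overlap, but missed the threshold by limma (adjusted p = 0.131) and edgeR (0.119), while DESeq2 called it (0.00903). SS (*Glyur001957s00039090*, Scaffold01957, bases 34519 to 41018) was at 91.4, 83.0 and 84.8 CPM in CK, 104, 126 and 123 CPM in CK + G2, 115, 103 and 123 CPM in S and 257, 151 and 173 CPM in S + G2, with 1 read in all on the gene nested in it, *Glyur001957s00039091*. The S + G2 libraries lay above all S libraries, but the log2 fold change of 0.73 ± 0.20 (SE) had an adjusted p of 0.724 (limma). Pyruvate decarboxylase (PDC, *Glyur003994s00042985*), which turns pyruvate into acetaldehyde, averaged 7.16 CPM, with 2 reads in all on the nested *Glyur003994s00042986*. A library with 0 reads allows up to 3 reads, or 0.764 to 0.908 CPM, and this limit covers counting error only. PDC was at 3.86, 5.26 and 2.42 CPM in CK and at 15.7, 12.1 and 10.2 CPM in S, without overlap, a log2 fold change of 1.52 ± 0.29 (SE, adjusted p = 0.0303, limma), while its partner had a single read in these 6 libraries.

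PFK was the exception among the enzyme pairs, since both genes were expressed alike. *Glyur000219s00011582* (PFK, minus strand of Scaffold00219, bases 149605 to 153662) and *Glyur000219s00011581* (bases 141960 to 150212) share 605 bp of exon at their 3′ ends, with 0 bp of coding sequence over coding sequence. PFK was at 5.66, 3.88 and 3.63 CPM in CK, at 8.20, 7.10 and 15.4 CPM in CK + G2, at 12.2, 14.1 and 6.62 CPM in S and at 7.46, 5.01 and 9.83 CPM in S + G2. The partner was at 5.41, 9.97 and 9.69 CPM in CK, at 7.38, 10.3 and 6.17 CPM in CK + G2, at 6.38, 7.87 and 9.93 CPM in S and at 14.4, 8.18 and 9.83 CPM in S + G2. The partner was higher in 6 libraries, PFK in 5, and they were equal in 1. Means were 8.25 CPM for PFK and 8.79 CPM for the partner, and per kilobase the order turned, at 3.93 and 3.79. They did not covary past the test (r = -0.35, Spearman -0.35, adjusted p = 0.738 by permutation), with r = -0.68 without the 2 farthest libraries. PFK averaged 10.95 ± 3.87 CPM under S against 4.39 ± 1.11 CPM for CK (SD, n = 3), without overlap between the groups, but missed the threshold (adjusted p = 0.110, limma), and the ratio within the pair missed it too (adjusted p = 0.250).

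The 4 most abundant pairs each had a gene at 3994 CPM or more. *Glyur000822s00038921* averaged 21136 CPM and the gene nested in it 0.839 CPM (37 reads in all), and *Glyur000166s00010574* averaged 3994 CPM against 15.97 CPM for its tail-to-tail partner *Glyur000166s00010576*. The Rubisco pair above was the second of these. The exception was *Glyur000183s00013019* and *Glyur000183s00013020*, both of 2 exons (Scaffold00183, bases 19955 to 27051 and 23537 to 27144), with 3145 bp of exon over exon. The first was at 1631, 2301 and 3495 CPM in CK, 4789, 2059 and 2099 CPM in CK + G2, 3775, 3041 and 3633 CPM in S and 2639.9, 5349.7 and 3042 CPM in S + G2. The second was at 3582, 4389 and 4409 CPM in CK, 7899, 4245 and 3825 CPM in CK + G2, 6632, 8372 and 5824 CPM in S and 4277, 9088 and 5079.9 CPM in S + G2, and was the higher in all 12. Both were highest in S + G2 library 2 and lowest in CK library 1 (r = 0.84, Spearman 0.87, adjusted p = 0.0524 by permutation). On annotated transcripts alone r was 1.00 (adjusted p = 0.00257 by permutation), it was 0.74 without the 3 libraries with the least Rubisco, and the pair was also called without CK library 3 (0.0308) or S library 2 (0.00858). Of the reads, 100% of the first gene's and 56.5% of the second's were on annotated transcripts. With means of 3155 and 5635 CPM over all reads, the 2 genes were thus near equal in level on annotated transcripts. The index of the split (defined below) was 265 over all reads, the highest of the 646 pairs. At a given variation of the split the index rises with the number of reads, here 139084 and 248667. Its height therefore does not show an unusually variable split. Whether single reads were counted for both genes was not tested. Of the 25 pairs with a gene at 1000 CPM or more, 20 had a lower gene under 1% of the pair.

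Covariation was measured as Pearson's r of log2(CPM + 1) over the 12 libraries, for the 646 pairs with both genes at the testing level and for 11884 other neighbouring pairs fitted with them. The overlapping pairs had a median r of 0.18, against 0.08 over all 12530, and 66.4% of them were above 0, against 58.2%. After the treatment means were taken out the medians were 0.16 and 0.08. By length of overlap, the median r was 0.07 in the 11 tested pairs at 100 to under 150 bp. It was 0.42 in the 32 tested opposite-strand neighbours with a shorter overlap, which are not members. A raised r was thus not particular to the members. A positive r passed the permutation test (100000 permutations, Benjamini-Hochberg over all 12530 pairs, adjusted p under 0.05) in 27 of 646 overlapping pairs (4.18%), against 1.1% of all pairs and 2.43% of the 412 opposite-strand neighbours that lie within 500 bp without overlap. A negative r passed it in 0 overlapping pairs, against 0.0798% of all pairs, with 20 at an unadjusted p under 0.05, 0 by Spearman's rho and 1 on annotated transcripts alone. A positive r had an unadjusted p under 0.05 in 124 pairs, against 1021 of all 12530, and a negative r in 408 of all 12530. The count of called pairs varied with the libraries and the measure used: it was 3 without CK library 1 and CK + G2 libraries 2 and 3 together, 16 without CK + G2 library 1 or without S + G2 library 2, and 15 by Spearman's rho. No other set of 3 libraries was left out, and fewer libraries give the test less power. The part of these 3 libraries in the fall was therefore not tested. The median r without those 3 libraries was 0.16, against 0.06 over all pairs.

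Median r was 0.25 in nested, 0.21 in head-to-head and 0.15 in tail-to-tail pairs, against 0.08 for head-to-head and 0.05 for tail-to-tail neighbours without overlap. Coding-over-coding pairs had a median of 0.24 with 17 of 296 called, pairs with exons overlapping outside that 0.15 with 8 of 267, and pairs without exon over exon 0.15 with 2 of 83. The 27 called pairs were among the more evenly expressed, with the lower gene at a median of 34.2% of the pair and under 10% in 2 of them, against 32.8% of the 646. The permutations ran over all 12 libraries regardless of treatment, so a response to treatment shared by both genes counts as covariation. After removal of treatment means the r of the 27 was 0.60 to 0.98, for which no test was run. Without the 2 farthest libraries it was at least 0.65. On annotated transcripts alone 21 of them could be computed, and 17 were called.

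**Figure D2:**
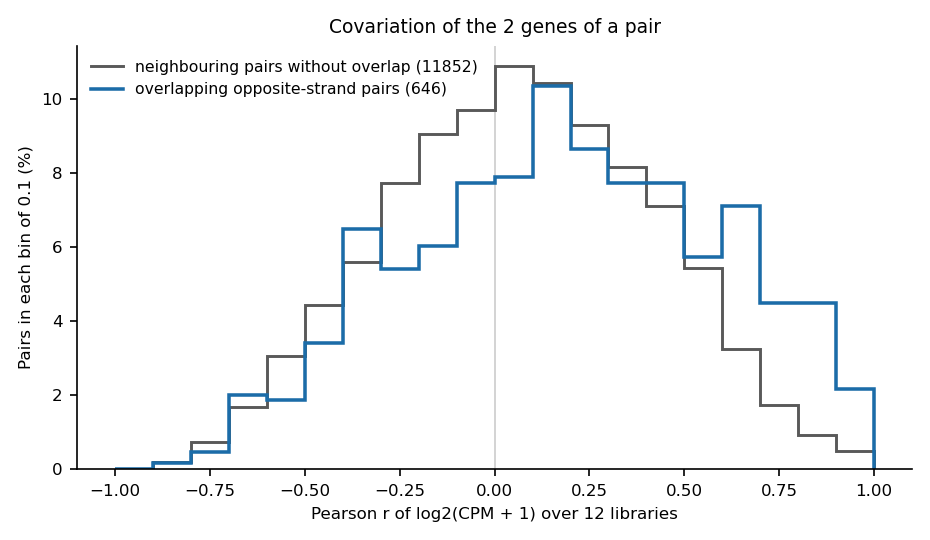
Share of pairs (%) in bins of 0.1 of Pearson's r over 12 libraries, for 646 overlapping opposite-strand pairs (blue) and 11852 neighbouring pairs without any overlap (grey). The blue line lies above the grey one in every bin from 0.4 upward, with 4.49% against 0.911% between 0.8 and 0.9, and both are low under -0.7.

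How constant the split of a pair's reads was could be set against counting error. The index used here is the chi-square of the 2 genes' reads over the 12 libraries divided by its degrees of freedom. It averages 1 when the split is the same everywhere and each read is counted once, but single pairs then scatter above and below 1 by counting error. A varying split raises it, and raises it more in pairs with more reads. The classes compared below were not matched for read number. It is lowered when the counts follow each other more closely than separate reads would. The index had a median of 2.04 in overlapping pairs and 2.36 in neighbours without overlap, so in both the split mostly varied beyond counting error. It was under 0.5 in 30 overlapping pairs (4.64%) and in 1.502% of neighbours without overlap, but also in 9.06% of the 596 neighbours without overlap that lie within 500 bp of each other. Within the overlapping pairs it was under 0.5 in 8.45% of coding-over-coding pairs, in 8.85% of head-to-head pairs and in 12 of the 27 called pairs. The 27 were picked by r over the same reads, which favours a low index, so their share is not a separate result. Whether single reads were counted for both genes in these pairs was not tested.

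The highest r was that of *Glyur000094s00007856* and the single-exon gene of 633 bp nested in it, *Glyur000094s00007857* (Scaffold00094, bases 137290 to 137922). The outer gene was at 686, 718 and 908 CPM in CK, 1236, 746 and 649 CPM in CK + G2, 1049, 1005 and 1023 CPM in S and 844, 1137 and 1042 CPM in S + G2. The inner gene was at 124, 139 and 176 CPM in CK, 244, 129.9 and 122 CPM in CK + G2, 209, 202 and 213 CPM in S and 145, 236 and 203 CPM in S + G2. Both peaked in CK + G2 library 1 and were low in CK libraries 1 and 2 and CK + G2 library 3, and r was 0.98 over all libraries, within treatments, and without the 2 farthest libraries (Spearman 0.97, adjusted p = 0.00482, the permutation p of 1e-05 being the smallest possible). The outer gene was 5.16 times higher by CPM and 1.25 times higher per kilobase. Of the reads of the outer gene 99.98% were on annotated transcripts, against 0.332% of those of the inner gene.

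*Glyur001272s00032526* and *Glyur001272s00032527* were the nearest to equal in level among pairs with both genes at 10 CPM or more, though their exons overlap by 1 bp only (Scaffold01272, bases 4820 to 9200 and 8879 to 11776). The first had 25.7, 37.6 and 47.5 CPM in CK, 41.0, 32.4 and 35.3 CPM in CK + G2, 38.9, 30.1 and 33.3 CPM in S and 26.4, 35.4 and 50.5 CPM in S + G2. The second had 26.0, 37.4 and 48.1 CPM in CK, 37.5, 32.1 and 35.6 CPM in CK + G2, 36.0, 29.8 and 34.9 CPM in S and 25.8, 35.4 and 45.0 CPM in S + G2. The reads, 1592 and 1553 in all, differed by at most 21 in a library, and the index of the split was 0.171. Here r was 0.98 (Spearman 0.97, adjusted p = 0.00482 by permutation) with all reads on annotated transcripts. Per kilobase of exon the second gene was the higher, at 101 against 44.2 CPM, its exons being the shorter. A like case at a lower level, named after its values were seen, was the head-to-head pair *Glyur000197s00010079* and *Glyur000197s00010080*, at 8.47 and 8.14 CPM, with an index of 0.0675 and r = 0.97.

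*Glyur000105s00014192* averaged 258 CPM and the 372 bp gene nested in it, *Glyur000105s00014193*, 40.3 CPM, and both were highest in S + G2 library 2, at 502 and 82.3 CPM (r = 0.97, Spearman 0.92, adjusted p = 0.00677 by permutation). Of the inner gene's reads, 1.51% were on annotated transcripts. *Glyur001425s00026825* (18.0 CPM) and *Glyur001425s00026826* (153 CPM) were low together in S library 3 and S + G2 libraries 1 and 2, to 7.46 to 7.89 CPM and 59.9 to 73.8 CPM (r = 0.95, Spearman 0.77, adjusted p = 0.0133 by permutation). This pair was not called by rho (adjusted p = 0.202) or without CK + G2 library 1 (0.0764). Without the 3 libraries with the least Rubisco, r of these 4 pairs was 0.92 to 0.98, and with 9 libraries 3 of the 4 missed the threshold.

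**Figure D3:**
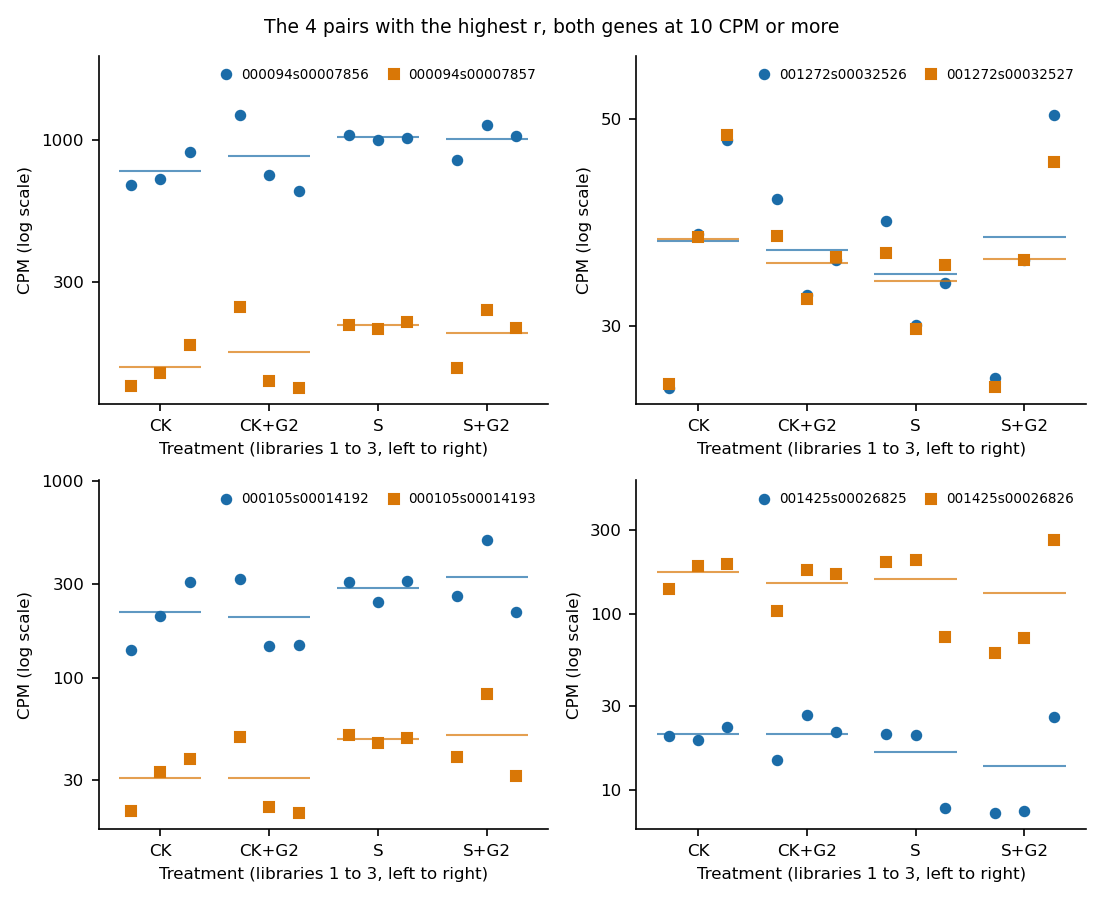
CPM (log scale) of both genes in each of the 12 libraries, for the 4 pairs with the highest r among those with both genes at 10 CPM or more. Circles and squares are the 2 genes, horizontal lines the means of a treatment, and the gene names are without the prefix Glyur. Within each panel both genes are high or low in mostly the same libraries, and in the pair of *Glyur001272s00032526* they coincide.

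The lowest r, with both genes at 10 CPM or more, came from pairs that overlap at their ends or, in 1 case, are nested, and none of them passed the test. *Glyur000212s00017503* was at 24.7, 26.3 and 16.0 CPM in CK, 15.6, 26.0 and 21.6 CPM in CK + G2, 16.2, 16.0 and 16.5 CPM in S and 24.5, 17.1 and 13.7 CPM in S + G2. Its tail-to-tail partner *Glyur000212s00017504* was at 325, 316 and 420.1 CPM in CK, 424, 298 and 334 CPM in CK + G2, 454, 444 and 393 CPM in S and 357, 374 and 392 CPM in S + G2. The libraries with most of the first gene were among those with least of the second (r = -0.87, Spearman -0.83, adjusted p = 0.0511 by permutation, r = -0.78 without the 2 farthest libraries and -0.85 within treatments). Without S + G2 library 3 the pair was called (r = -0.92, adjusted p = 0.0294), while on annotated transcripts alone r was -0.27 (adjusted p = 0.834).

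The remaining 3 were weaker. In the nested pair *Glyur000533s00015035* and *Glyur000533s00015036* the inner gene was the higher, at 149 against 37.1 CPM, and r was -0.69 (adjusted p = 0.249 by permutation). In *Glyur000179s00010708* and *Glyur000179s00010710*, at 24.96 and 20.1 CPM, the first gene was the higher in 8 libraries and the second in 4, among them CK library 1 and CK + G2 libraries 2 and 3 (r = -0.68, adjusted p = 0.279 by permutation). In *Glyur000084s00009534* and *Glyur000084s00009535* the first gene stayed between 10.1 and 14.0 CPM while the second ran from 4.89 to 21.9 CPM (r = -0.67, adjusted p = 0.292 by permutation). Without the 3 libraries with the least Rubisco r of these 3 pairs was -0.46, -0.38 and -0.07, and that of the first pair was -0.79.

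**Figure D4:**
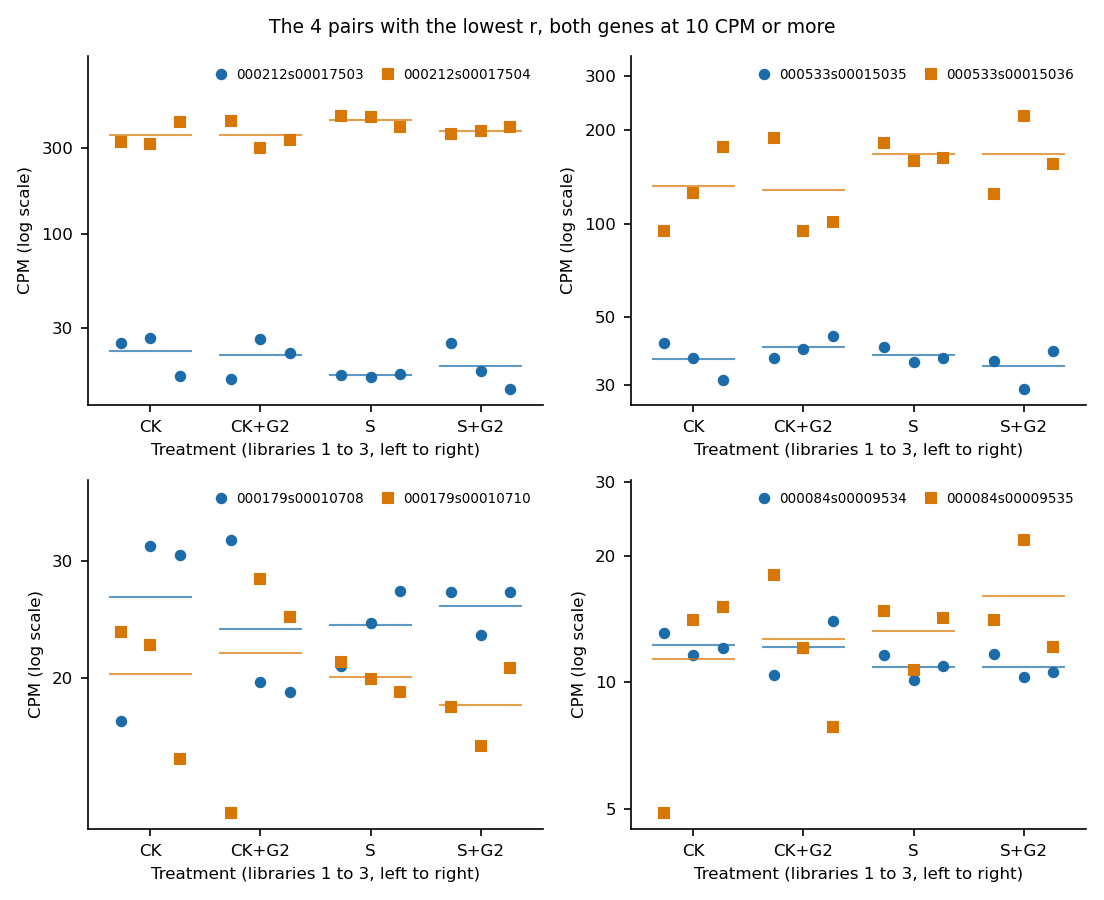
CPM (log scale) of both genes in each of the 12 libraries, for the 4 pairs with the lowest r among those with both genes at 10 CPM or more (r from -0.87 to -0.67). Circles and squares are the 2 genes and horizontal lines the means of a treatment. In the pair of *Glyur000179s00010708* the order of the genes turns in CK library 1 and CK + G2 libraries 2 and 3.

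Equal means were also found without covariation past the test. Next to the pair of *Glyur001272s00032526*, the pairs nearest to equality with both genes at 10 CPM or more were *Glyur001981s00035949* and *Glyur001981s00035950*, at 20.2 and 20.8 CPM, and *Glyur000008s00001327* and *Glyur000008s00001328*, at 27.0 and 28.3 CPM. Their r was 0.01 and -0.19 (adjusted p = 0.998 and 0.890 by permutation), and which gene was the higher changed between libraries in both. The pairs with the longest exon overlap were unequal in 1 case and near equal in the other. *Glyur000078s00005394* and *Glyur000078s00005395*, with 4853 bp of exon over exon, averaged 199 and 18.0 CPM (r = 0.62, adjusted p = 0.366 by permutation), and *Glyur000133s00010380* and *Glyur000133s00010381*, with 4313 bp, 48.3 and 52.9 CPM (r = 0.43, adjusted p = 0.630). In the first of these both genes were highest in CK + G2 library 2, at 259 and 39.2 CPM, and r was 0.25 without the 2 farthest libraries.

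In the S vs. CK comparison, 41 of 2314 member genes tested passed the test (limma on log2(CPM + 1), adjusted over 21543 genes), 13 higher and 28 lower in S. Of all genes tested 0.357% were higher and 1.58% lower, so the share among member genes (1.77%) was close to that of all genes (1.94%). The median log2 fold change was -0.05 in both. Leaving out a library brought the count to 16 without CK library 3 or S library 3, 19 without CK library 2 or S library 2, 24 without S library 1 and 30 without CK library 1. edgeR on the recovered reads called 33 and DESeq2 74, and on annotated transcripts alone 3 were called. The called gene had a partner below the testing level in 27 cases. In the other 14 cases the partner was tested too and was not called. In 13 of these 14 its log2 fold change had the same sign as that of the called gene. The like share among other neighbouring pairs was not computed.

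Of the called members with the largest changes, some had a partner at 1 read and others a partner that was expressed. *Glyur000031s00004382* fell from 650.2, 296 and 521 CPM in CK to 52.5, 75.6 and 44.8 CPM in S, a log2 fold change of -3.02 ± 0.28 (SE, adjusted p = 0.00137), and the gene nested in it had 1 read in all 12 libraries, in CK + G2. *Glyur001389s00037968* had 1 read in each CK library and 18, 17 and 21 reads in S, or 4.78 to 5.34 CPM, with 1 read in all on its head-to-head partner. It reached the testing level only through the S libraries, so that no test is given for it, though it is among the 41. *Glyur000570s00022984* rose from 6.18, 6.09 and 6.36 CPM to 26.7, 17.4 and 19.1 CPM (1.59 ± 0.22, adjusted p = 0.00643). Its nested partner *Glyur000570s00022985* was at 1.80, 1.38 and 2.12 CPM in CK and 6.09, 3.09 and 3.05 CPM in S, also without overlap but short of the threshold (0.83, adjusted p = 0.243).

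The ratio within a pair, the difference of the log2(CPM + 1) values, differed between S and CK in 8 of 550 pairs (1.45%), against 2.73% of 11468 pairs, with 76 at an unadjusted p under 0.05. The strongest was the head-to-head pair of *Glyur000015s00000795*, a single-exon gene of 375 bp (Scaffold00015, bases 278341 to 278715), and *Glyur000015s00000796*. The first fell from 475, 114 and 189.8 CPM in CK to 28.1, 41.9 and 17.6 CPM in S (-2.94 ± 0.46, adjusted p = 0.0137), while the second was at 5.66, 4.15 and 4.24 CPM and at 3.77, 3.37 and 3.56 CPM. The second was thus also lower in S without overlap, but was not called (-0.31, adjusted p = 0.626, limma). The log2 ratio went from 5.27 ± 0.85 to 2.64 ± 0.64 (SD, n = 3), a change of -2.63 (adjusted p = 0.00747). It was called under every alternative that could be computed, while the gene's own call was lost without CK library 3 (adjusted p = 0.0560).

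In the nested pair of *Glyur001782s00031725* and *Glyur001782s00031726* the outer gene fell from 93.7, 90.8 and 86.9 CPM to 39.2, 59.9 and 55.7 CPM, while the inner was at 7.98, 4.15 and 5.15 CPM and at 7.54, 8.44 and 9.67 CPM (ratio -1.35, adjusted p = 0.0286). In 2 other nested pairs the ratio changed the other way, with the inner gene lower in every S library than in any CK library. *Glyur000960s00023944* went from 7.21, 5.81 and 5.75 CPM to 0.580, 0.844 and 1.78 CPM inside *Glyur000960s00023943*, which was at 247 to 334 CPM in CK and 201.1 to 401 CPM in S (ratio 1.79). *Glyur000052s00005809* went from 5.92, 5.26 and 6.36 CPM to 2.61, 0.281 and 0.509 CPM inside *Glyur000052s00005808*, at 26.0 to 34.8 CPM and 32.3 to 43.9 CPM (ratio 2.09). Both inner genes reached the testing level only through the CK libraries, so that no test is given for these 2 pairs, though both are among the 8. These 3 nested pairs lost their place among the called ratios without single libraries. This happened for *Glyur000960s00023944* without CK library 2 or 3 or S library 2, for *Glyur000052s00005809* without CK library 2 or 3 or S library 2 or 3, and for *Glyur001782s00031725* without CK library 2 or 3 or any S library.

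**Figure D5:**
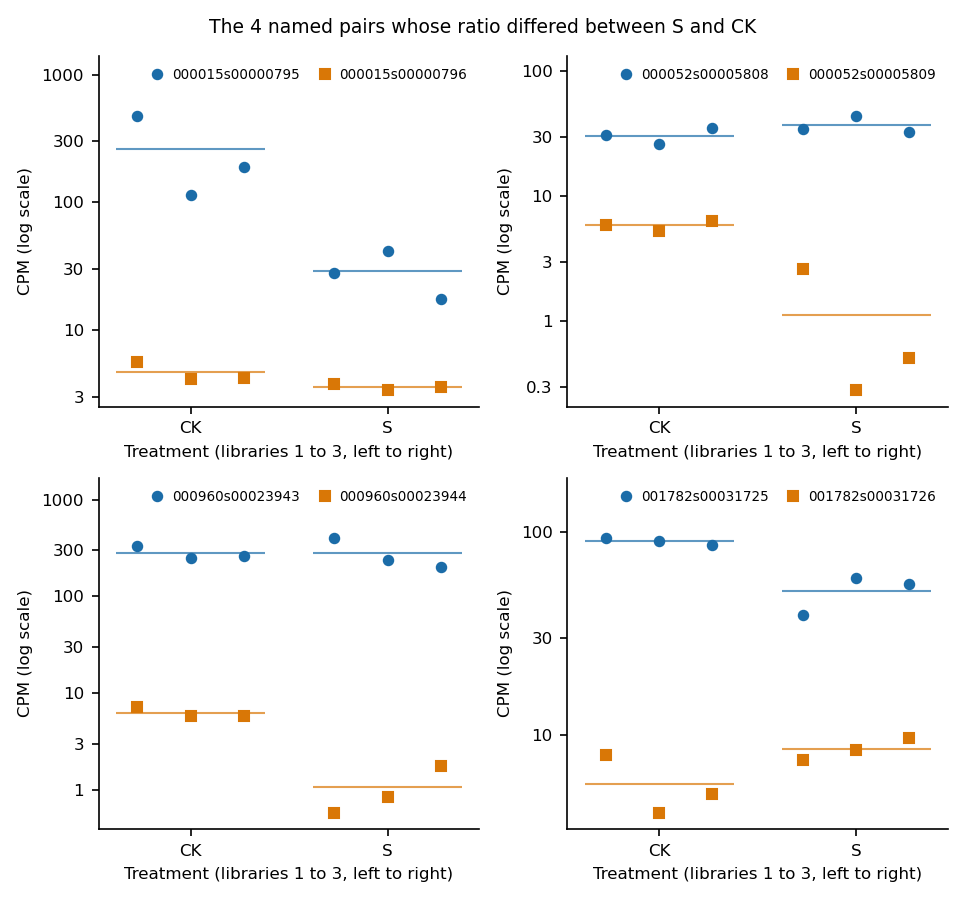
CPM (log scale) of both genes in the CK and S libraries for the 4 pairs with the largest change of ratio in either direction among the 8. For the pairs of *Glyur000960s00023944* and *Glyur000052s00005809* no test is given, since these genes reached the testing level only through the CK libraries. Circles and squares are the 2 genes and horizontal lines the means of a treatment. In each panel the gene with the larger shift differs between CK and S without overlap (*Glyur000015s00000795*, *Glyur001782s00031725*, *Glyur000052s00005809* and *Glyur000960s00023944*). The partner of *Glyur000015s00000795* is also lower in S without overlap, at 3.37 to 3.77 against 4.15 to 5.66 CPM. In the other panels the partner's values in CK and S overlap.

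Between salt with and without G2 no member was called. In the S + G2 vs. S comparison 0 of 2333 member genes were called by limma, with 133 at an unadjusted p under 0.05, 0 by edgeR and 2 by DESeq2, and among all genes 0% were called higher and 0.00465% lower. Of the ratios 0 of 559 were called, against 0% of all pairs, with 32 at an unadjusted p under 0.05 by limma, the tool run on ratios. In the CK + G2 vs. CK comparison 1 of 2329 member genes was called, against 0.0185% higher and 0.0415% lower of all genes, and 0 of 559 ratios by limma (22 at an unadjusted p under 0.05), against 0% of all pairs. The gene was *Glyur000570s00022971*, at 60.7, 47.3 and 59.0 CPM in CK and 129, 131 and 175 CPM in CK + G2 (1.36 ± 0.18, adjusted p = 0.04996), and it lost its call under 14 of 15 alternatives, with DESeq2 the exception. The same gene was also called higher in S than in CK, at 78.7 to 122 CPM in S (0.89 ± 0.19, adjusted p = 0.0475, limma). Its nested partner *Glyur000570s00022972* had 2, 1 and 1 reads in CK + G2 and 0 in the other 9 libraries. The salt effect with G2 was not shown to differ from that without it in any member: of 2457 genes 0 were called (154 at an unadjusted p under 0.05, lowest adjusted p = 0.278) and of 646 ratios 0 (43, 0.460), by limma's interaction term alone, against 1 of all 22751 genes and 0 of all 12530 ratios.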

How the data were processed

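Per the study's methods, the authors discarded reads that were short, of low quality or ribosomal, polished those with primers at both ends, and aligned them to a transcriptome reference (minimap2 is named in the submitters' processing notes). They deposited gene and transcript values in CPM, reads per 1000000 aligned reads, and an annotation, whose genome release neither labels nor methods state. The methods name an Illumina sequencer, the labels a nanopore one. Reads behind each CPM value were recovered (100% whole within 0.01). Overlaps were computed from the annotation's gene, exon and coding ranges. Differences were tested with limma 3.58.1 (trend, R 4.3.3) on log2(CPM + 1) for genes that reached 1 CPM in 3 or more libraries of a fit, where the study used a count model. The fit took the 6 libraries of a comparison or all 12 for the interaction, and p-values were adjusted (Benjamini-Hochberg) over all genes or neighbouring pairs. Correlations used 100000 permutations (numpy 2.4.6, Python 3.11.15). Alternatives were edgeR 4.0.16 and DESeq2 1.42.0 on the recovered reads, other pseudocounts, filters and scaling, annotated transcripts alone, a replicate block and libraries left out. The split index and the scale per kilobase were added after seeing the data.

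Pairs were named if they held a gene the study names by identifier, were among the 4 most abundant, were, with both genes at 10 CPM or more, the 4 highest or lowest in r, the 3 nearest to equal or the 2 with the longest exon overlap, or held the 2 largest called changes in either direction of a comparison without overlap of the groups. Members and lists were chosen with earlier results of these data known. On simulated reads at the real depths, limma recovered 54.5% of genes changed in S vs. CK over 21538 genes (7.63% of its calls were unchanged genes) and 37.3% of changed ratios over 11363 pairs, and the correlation test 99% of strongly covarying pairs over 12194. Changed genes were drawn only from those above a set mean level, so the 54.5% and 37.3% do not cover changes in weaker genes. The covarying pairs were simulated only with both genes at 10 CPM or more and with a large spread between libraries. Recovery was therefore not measured for the 478 of 646 overlapping pairs with a lower gene under 10 CPM. Replicates are separate samples by the labels, and p-values measure the spread between them.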

Additional observations from a re-analysis of the deposited data

How the results depend on the processing

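The S vs. CK count of 41 member genes became 3 on annotated transcripts alone, 74 with DESeq2, 22 for overlaps of at least 500 bp and 16 to 30 with a library left out. The 8 ratios became 2 with a pseudocount of 0.1, 0 on annotated transcripts alone and 2 to 9 with a library left out. In S + G2 vs. S, DESeq2 called 2 genes, and 0 to 1 were called with a library left out. The single gene of CK + G2 vs. CK became 0 with pseudocounts of 0.5 or 0.1, no filter, a filter at a mean of 10 reads, TMM scaling, edgeR or annotated transcripts alone, 6 with DESeq2 and 0 to 1 with a library left out. The ratio counts of both G2 comparisons were 0 under every alternative run. The 27 correlated pairs became 15 by Spearman's rho, 3 without CK library 1 and CK + G2 libraries 2 and 3 (an alternative added after seeing the data), and 16 to 28 with a library left out. The median r became 0.28 on annotated transcripts alone and stayed within 0.17 and 0.21 with a library left out. The share of pairs with the lower gene under 10% was 68.8% for overlaps of at least 500 bp, 63.0% on annotated transcripts alone, 32.8% with both genes at 1 CPM in 3 libraries, 61.4% per kilobase and 70.1% to 70.4% with a library left out.

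Replicate numbers did not pair the samples, since deviations of same-numbered samples correlated at -0.20 to 0.11, with 1 of 18 over 0.1. With the replicate number as a block, 32 genes and 4 ratios were called in S vs. CK, 0 genes in CK + G2 vs. CK, and 43 pairs were correlated with a median r of 0.19.

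Among the named pairs, signs turned only for r near 0. For the pair of *Glyur000822s00038921* r was -0.011 with a pseudocount of 0.1, -0.0051 with the replicate block, -0.25 without the 3 libraries and -0.12 to 0.17 with a library left out. For that of *Glyur001981s00035949* it was -0.22 with TMM scaling, -0.31 without the 3 libraries and -0.075 to 0.11 with a library left out. For that of *Glyur000960s00023943* it was -0.018 with TMM scaling, -0.00043 with a pseudocount of 0.1, -0.25 without the 3 libraries and -0.11 to 0.69 with a library left out. Without the 3 libraries it was 0.085 for that of *Glyur000166s00010574* (-0.58 to 0.033 with a library left out) and 0.36 for that of *Glyur000008s00001327* (-0.32 to 0.029), and on annotated transcripts alone 0.34 for that of *Glyur000052s00005808*. The cause of these changes was not tested. A lower gene at 0 to 3 reads per library limits what the ratios and r of most pairs can show.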
